A study of Mus musculus with 4 samples.

Results

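The genes described here are 10 transcripts of the Hippo and YAP pathway: the co-activator genes Yap1 and Wwtr1, the DNA-binding partners Tead1, Tead2 and Tead3, the kinase genes Lats1 and Lats2, and the target genes Ctgf, Cyr61 and Ankrd1. They were taken by symbol from a table of 22138 genes, and all 10 were found there. RNA was sequenced from TT2 mouse embryonic stem cells, a female line on a C57BL/6xCBA background. The cells were cultured feeder-free in medium with serum and LIF, the cytokine that keeps such cells undifferentiated. One group received control siRNA (n = 2) and the other received siRNA against Hnrnpk (n = 2), which encodes the RNA- and DNA-binding protein hnRNP K. In both groups cells were transfected with 100 nM siRNA and again 24 hours later with 50 nM, and were harvested about 72 hours after the second transfection. The study concerns silencing by the histone methyltransferase SETDB1, and the comparison here is of transcript levels with and without Hnrnpk depletion.

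The Hippo pathway is a kinase cascade that restrains 2 closely related co-activators, YAP (Yap1) and TAZ (Wwtr1). LATS kinases, switched on by the MST kinases, phosphorylate both proteins and keep them out of the nucleus. When not phosphorylated, YAP and TAZ enter the nucleus and bind TEAD proteins on DNA, where they raise the transcription of genes such as Ctgf, Cyr61 and Ankrd1. In the early mouse embryo this switch separates the outer trophectoderm, where nuclear YAP acts through Tead4, from the inner cells that give rise to embryonic stem cells. Control of YAP by phosphorylation and location is not visible in transcript levels, so the values below describe the messenger RNAs alone.

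Hnrnpk itself stood at 236 and 226 RPKM (reads scaled to gene length and library size) after control siRNA and at 68.0 and 70.5 RPKM after Hnrnpk siRNA. The depletion was therefore partial, to a ratio of 0.3, and matched the labels. Of 10 stem cell markers, the lowest value of any being 94.2 RPKM (Klf4, control replicate 2), 2 rose (Nanog and Dppa5a), 3 fell (Sox2, Utf1 and Tdgf1) and 5, Pou5f1 and Zfp42 among them, were not called, with a median log2 change of -0.063. Their summed level was 4023 to 4166 RPKM in the controls and 4807 to 5124 RPKM after Hnrnpk siRNA, but without Dppa5a it was 2746 to 2846 RPKM and 2643 to 2672 RPKM. Relative depth, read from the commonest ratio between low values, was 0.982, 0.891 and 0.882 in control replicate 2 and Hnrnpk siRNA replicates 1 and 2, with control replicate 1 set to 1. That ratio was found in 108 of 2712, 66 of 2354 and 80 of 2376 low genes, in the same order, so these figures are rough. The absolute number of reads is not known. Of 12486 genes tested with limma at a Benjamini-Hochberg adjusted p under 0.05, 67.2% were called in either direction, 32.2% higher and 35.0% lower. This high background is the measure for every count of calls below.

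TEAD proteins recognise a short element whose core reads GGAATG, or CATTCC on the other strand. The 250 bases before the RefSeq start site (GRCm38.p6) were searched for these letters on both strands. Upstream sequence of Cyr61 and Ankrd1 is shown because both are textbook YAP targets and, as described below, their transcripts stood far apart in level and only Cyr61 could be tested. Capitals mark the TEAD letters. The Cyr61 stretch is chr3:145649986-145650235 and the Ankrd1 stretch is chr19:36119845-36120094, both given on the minus strand, 5′ to 3′, ending at the base before the start site.
Cyr61: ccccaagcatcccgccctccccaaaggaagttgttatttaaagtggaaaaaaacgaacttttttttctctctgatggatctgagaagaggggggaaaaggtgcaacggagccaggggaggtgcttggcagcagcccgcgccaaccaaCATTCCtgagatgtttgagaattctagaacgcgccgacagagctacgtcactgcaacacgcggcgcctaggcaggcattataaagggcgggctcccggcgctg
Ankrd1: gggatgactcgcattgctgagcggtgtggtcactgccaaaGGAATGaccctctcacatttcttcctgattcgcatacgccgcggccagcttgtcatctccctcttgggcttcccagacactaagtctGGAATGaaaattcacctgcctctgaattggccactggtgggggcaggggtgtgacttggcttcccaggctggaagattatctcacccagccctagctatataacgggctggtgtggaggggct

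The Cyr61 stretch held the letters once, from -103 to -98 relative to the start site, and the Ankrd1 stretch held them 2 times, from -210 to -205 and from -123 to -118. Among 32817 RefSeq windows of the same length, 12.6% held them. Promoter windows were found for 8 of the 10 genes, 12 windows in all, some of which overlap. The letters occurred in 7 of these windows, belonging to Cyr61, Ankrd1, Yap1, Wwtr1 and Tead3. The 2 Wwtr1 windows overlap and hold the same occurrence, at -136 in the first and -170 in the second, so it is counted in both. They did not occur in the windows of Tead2, Lats1 and Lats2. The AP-1 element TGANTCA, which often lies near TEAD sites, was in none of the 12 windows and in 6.75% of all windows. The C-rich letters CCCTCCCC (GGGGAGGG on the other strand), of the kind hnRNP K binds, were in 9.68% of all windows and, among these genes, once in Cyr61, from -236 to -229. A match to letters is a description of sequence and does not show binding.

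The 10 transcripts spanned a wide range of levels. RPKM is scaled to gene length, so levels can be set side by side. In the control libraries the order by mean RPKM was Tead2 (28.8), Yap1 (22.3), Tead1 (19.9), Cyr61 (19.7), Wwtr1 (7.26), Ctgf (7.22), Lats1 (5.40), Lats2 (1.92), Tead3 (1.39) and Ankrd1 (0.0584). Tead1 and Cyr61 overlapped in their libraries, as did Wwtr1 and Ctgf. The other neighbours in this order did not. After Hnrnpk siRNA the target genes Cyr61 (53.9) and Ctgf (32.7) stood first, ahead of Tead1 (26.0), Yap1 (24.7) and Tead2 (21.1). Tead1 and Yap1 were the only neighbours whose libraries overlapped there. The lower end of the order was the same in both groups, with Wwtr1, Lats1, Lats2, Tead3 and Ankrd1 in sequence once Ctgf is set aside.

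**Figure D1:**
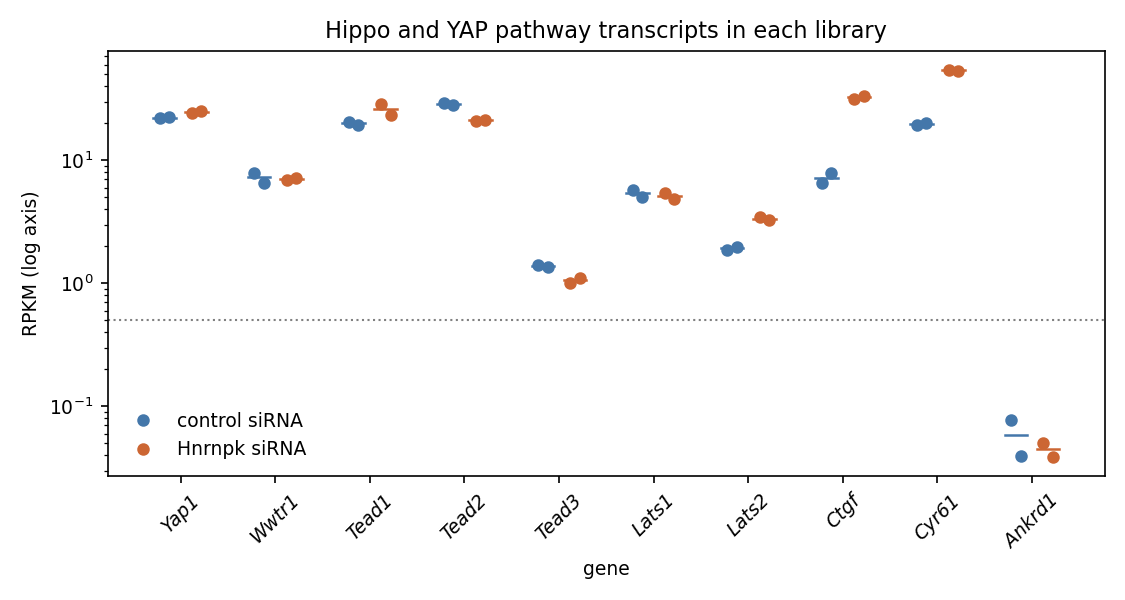
RPKM of the 10 genes in each of the 4 libraries, on a log axis, with a short line at each group's mean (n = 2) and a dotted line at 0.5 RPKM, the average a gene had to reach to be tested. Ctgf, Cyr61 and Lats2 are clearly apart between the groups, while Ankrd1 lies under the dotted line in every library.

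Of the 10 genes, 9 reached the average of 0.5 RPKM that was required for testing, and Ankrd1 did not. On the log2(RPKM + 0.5) scale 6 of these 9 were called, a share near the 67.2% over all genes: 4 rose (Ctgf, Cyr61, Lats2 and Tead1) and 2 fell (Tead2 and Tead3). Yap1, Wwtr1 and Lats1 were not called. The groups did not overlap for 7 of the 9, against 84.7% of all genes tested. Both Hnrnpk siRNA libraries lay above both controls for 5 (41.2% of all genes tested) and below them for 2 (43.5%). The median log2 change of the 9 was 0.15, against -0.015 over all genes tested. The 2 replicates of a group are described as biological, but whether they were separate cultures is not stated, so these p-values measure only the spread between libraries, which may be technical.

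The target genes Ctgf and Cyr61 showed the largest changes among the 10. Both encode secreted matrix-associated proteins of the CCN family, now named Ccn2 and Ccn1, and both are also induced quickly by serum and by other signals. Ctgf (ENSMUSG00000019997, GRCm38 chromosome 10, 24595442 to 24598683, plus strand) had 6.52 and 7.91 RPKM after control siRNA and 31.8 and 33.6 RPKM after Hnrnpk siRNA. Both Hnrnpk siRNA libraries lay far above both controls. The ratio of means was 4.53 and the log2 change 2.11 (SE 0.0902, limma adjusted p = 1.47e-07). By size of rise Ctgf ranked 66 among the 12486 genes tested. In GENCODE M21, 665 exonic bases of Ctgf lie opposite exons of Gm15270 on the other strand; whether the libraries were stranded is not stated in the labels, so reads of the 2 genes cannot be told apart there.

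Cyr61 (ENSMUSG00000028195, chromosome 3, 145646976 to 145649981, minus strand) had 19.3 and 20.2 RPKM in the controls and 54.2 and 53.6 RPKM after Hnrnpk siRNA. Replicates differed little and the groups were well apart. Its ratio of means was 2.73 and its log2 change 1.43 (SE 0.0620, limma adjusted p = 1.53e-07), rank 228 by size of rise.

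Ankrd1, which encodes a stress-responsive ankyrin repeat protein best known from heart and skeletal muscle, was close to 0 throughout. Its values (ENSMUSG00000024803, chromosome 19, 36111961 to 36120099, minus strand) were 0.0773 and 0.0394 RPKM in the controls and 0.0503 and 0.0388 RPKM after Hnrnpk siRNA. The groups overlapped. No change was seen at this low level: with no filter, limma gave a log2 change of -0.035 (SE 0.0376, adjusted p = 0.488). The added 0.5 RPKM shrinks any change of so low a gene. The remaining 4 CCN genes, Nov and Wisp1 to Wisp3, were also too low to be tested. Nov, a matrix protein gene, was the highest of them after Hnrnpk siRNA, with 0.165 and 0.160 RPKM in the controls and 0.542 and 0.523 RPKM after Hnrnpk siRNA.

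By a distance between centred log2 values over the 4 libraries, the genes whose pattern was most like that of Ctgf were Id2 (distance 0.0367), Gadd45b (0.0676) and Gm9982 (0.0984). Id2, an inhibitor of basic helix-loop-helix factors, went from 7.31 and 8.88 RPKM to 36.0 and 36.7 RPKM. Gadd45b, a stress-response gene, went from 8.83 and 10.045 RPKM to 41.6 and 44.7 RPKM. With 2 libraries a group this likeness says little more than that the size of the rise was alike.

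Neither co-activator gene was called. Yap1 (ENSMUSG00000053110, chromosome 9, 7931999 to 8004596, minus strand) had 21.9 and 22.6 RPKM after control siRNA and 24.3 and 25.1 RPKM after Hnrnpk siRNA. The Hnrnpk siRNA libraries lay above the controls by a small margin. The log2 change of 0.15 (SE 0.0638, 95% interval 0.0030 to 0.29) was not called, with an adjusted p of 0.0663 by limma. Wwtr1, the gene for TAZ (ENSMUSG00000027803, chromosome 3, 57455649 to 57575910, minus strand), had 7.93 and 6.59 RPKM in the controls and 6.95 and 7.13 RPKM after Hnrnpk siRNA. The Hnrnpk siRNA values fell between the control values, and limma estimated a log2 change of -0.037 (SE 0.0930, 95% interval -0.25 to 0.17, adjusted p = 0.74). Changes of either gene as large as that of Cyr61 lie outside these intervals.

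**Figure D2:**
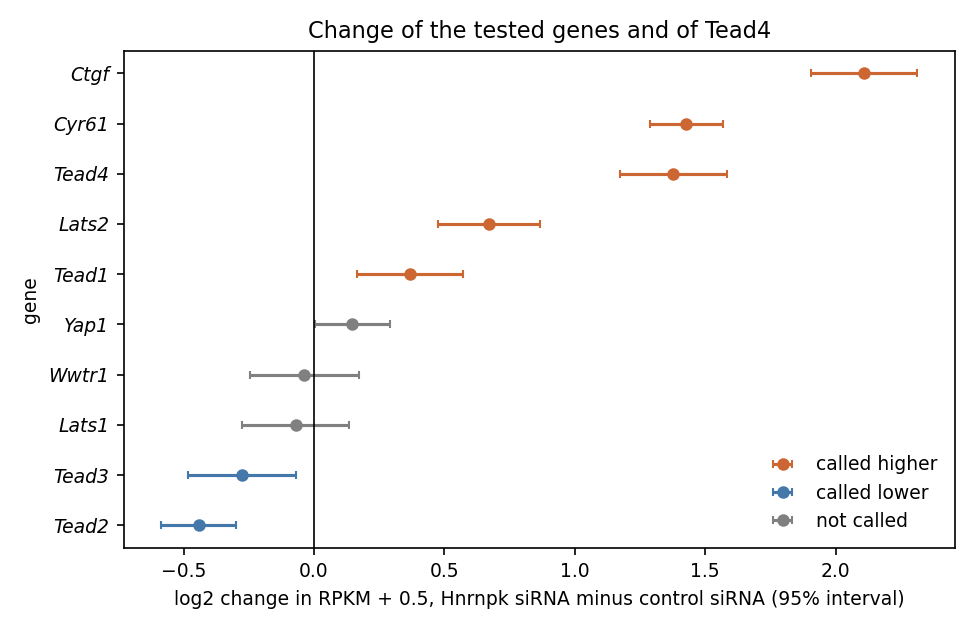
Log2 change of RPKM + 0.5 (Hnrnpk siRNA minus control siRNA) for the 9 tested genes and for Tead4, with 95% intervals from limma. Ctgf at 2.11 and Cyr61 at 1.43 stand at the top, Tead4 at 1.38 follows, and Tead2 at -0.44 stands at the bottom.

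Of the LATS kinases, which inhibit YAP and TAZ, Lats2 rose and Lats1 was not called. Lats1 (ENSMUSG00000040021, chromosome 10, 7681214 to 7716460, plus strand) had 5.73 and 5.06 RPKM in the controls and 5.40 and 4.83 RPKM after Hnrnpk siRNA. Its groups overlapped, and limma estimated a log2 change of -0.070 (SE 0.0913, 95% interval -0.27 to 0.14, adjusted p = 0.52). Lats2, itself listed among YAP target genes as well as being a YAP inhibitor (ENSMUSG00000021959, chromosome 14, 57689662 to 57758388, minus strand), rose from 1.86 and 1.98 RPKM to 3.44 and 3.27 RPKM. Both Hnrnpk siRNA libraries lay above both controls, with a ratio of means of 1.75 and an estimated log2 change of 0.67 (limma, SE 0.0864, adjusted p = 1e-04). The level of Lats2 relative to Lats1 was 0.324 and 0.391 in the controls and 0.636 and 0.676 after Hnrnpk siRNA. This ratio did not overlap between the groups, but an exact two-sided permutation test of 2 against 2 libraries cannot give a p below 0.333, which is the value obtained (adjusted p = 0.333 over 4 paralog ratios). In GENCODE M21, 56.9% of the longest Lats2 transcript is shared with the annotated gene Gm49361 at the same locus, so the value is that of the locus rather than of 1 gene model.

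The TEAD genes encode factors that share a DNA-binding domain and bind the same element, and they went in different directions. Tead1 (ENSMUSG00000055320, chromosome 7, 112679318 to 112906807, plus strand) went from 20.6 and 19.3 RPKM to 28.5 and 23.5 RPKM. Its Hnrnpk siRNA libraries differed from each other more than the controls did, and both lay above them. Limma estimated a log2 change of 0.37 (SE 0.0911, adjusted p = 0.00534). It rested in part on Hnrnpk siRNA replicate 1: without that library the log2 change was 0.23 (limma adjusted p = 0.0563; all alternatives gave 7.12e-05 to 0.0563).

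Tead2, the TEAD gene most abundant in the controls (ENSMUSG00000030796, chromosome 7, 45215753 to 45233644, plus strand), fell from 29.5 and 28.2 RPKM to 20.9 and 21.3 RPKM. The groups were well separated, with a ratio of means of 0.731 and an estimated log2 change of -0.44 (limma, SE 0.0635, adjusted p = 2e-04). Correction for GC content, library by library, reduced this to -0.29, still called (limma adjusted p = 0.00189; all alternatives gave 3.76e-06 to 0.00249). Tead3 (ENSMUSG00000002249, chromosome 17, 28331671 to 28350817, minus strand), the lowest of the TEAD genes, had 1.41 and 1.37 RPKM in the controls and 1.01 and 1.10 RPKM after Hnrnpk siRNA. Limma estimated its log2 change at -0.28 (SE 0.0920, adjusted p = 0.0227). That call was lost without Hnrnpk siRNA replicate 1 (-0.24, adjusted p = 0.196), without Hnrnpk siRNA replicate 2 (-0.32, adjusted p = 0.0941), with GC trends removed (-0.12, adjusted p = 0.222) and under quantile normalization (-0.18, adjusted p = 0.0844). The limma adjusted p of Tead3 ranged from 0.00969 to 0.222 over the alternatives.

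Tead4, the TEAD gene of the trophectoderm, is not among the 10 genes but completes the family. It rose from 6.96 and 5.77 RPKM to 17.7 and 16.9 RPKM, and limma estimated its log2 change at 1.38 (SE 0.0907, adjusted p = 1.63e-06). Summed over Tead1 to Tead4, TEAD transcripts came to 58.4 and 54.6 RPKM in the controls and 68.1 and 62.7 RPKM after Hnrnpk siRNA. Without Tead4 the sums were 51.5 and 48.9 RPKM against 50.4 and 45.8 RPKM, which overlap. The share of Tead2 in the sum of all 4 was 50.4% and 51.6% in the controls and 30.7% and 33.9% after Hnrnpk siRNA, and that of Tead4 went from 11.9% and 10.6% to 26.0% and 26.9%. The share of Tead1 was 35.2% and 35.3% in the controls and 41.8% and 37.4% after Hnrnpk siRNA. Tead3 made up 2.41% and 2.50%, then 1.49% and 1.76%.

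**Figure D3:**
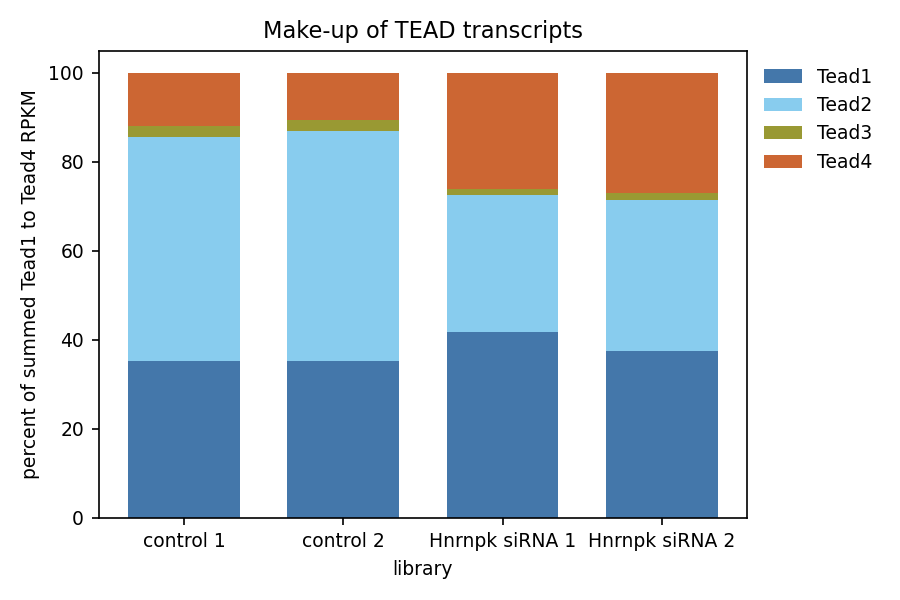
Share of each TEAD gene in the summed RPKM of Tead1 to Tead4, in percent, for each of the 4 libraries. Tead2 shrinks from 50.4% and 51.6% in the controls to 30.7% and 33.9% after Hnrnpk siRNA, and Tead4 grows to 26.0% and 26.9%.

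The ratio of Tead1 to Tead2 was 0.698 and 0.683 in the controls and 1.36 and 1.10 after Hnrnpk siRNA, so the order of these 2 genes was inverted. The ratio of Tead3 to Tead2 was between 0.0478 and 0.0518 in all 4 libraries, and that of Wwtr1 to Yap1 was 0.362 and 0.291 in the controls and 0.286 and 0.284 after Hnrnpk siRNA. Each of these ratios gave the smallest p that 2 against 2 libraries allow (exact two-sided permutation p = 0.333, adjusted p = 0.333 over 4 ratios).

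Other genes of the cascade were read from further lists. In the list of 15 other core kinases and scaffolds, 14 were tested, 5 rose and 6 fell, with a median log2 change of -0.14. The largest fall was in Nf2, the gene for the tumour suppressor merlin that recruits LATS to the membrane, from 42.6 and 40.6 RPKM to 26.2 and 26.4 RPKM (log2 change -0.65, limma adjusted p = 1.53e-05). Mink1 and Map4k4, kinases that can act beside the MST kinases, had log2 changes of -0.61 and -0.23. Of the MST genes, Stk4 fell slightly (log2 change -0.20) and Stk3 was not called (-0.16). Mob1b, a LATS co-activator, rose from 2.51 and 2.49 RPKM to 4.10 and 3.72 RPKM (log2 change 0.55, limma adjusted p = 0.000344). Taok1, Map4k3 and Mob1a rose by 0.45, 0.30 and 0.21 on the log2 scale. Calls thus went both ways within the core, as they did over all genes tested, of which 32.2% were called higher and 35.0% lower.

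The list of upstream and junction regulators was near the background as well. Of 33 tested, 9 rose and 12 fell, against 32.2% and 35.0% of all genes tested, with a median log2 change of -0.039. Wwc1, the gene for KIBRA, which activates LATS, fell from 29.3 and 28.5 RPKM to 13.3 and 13.1 RPKM (log2 change -1.10, limma adjusted p = 8.6e-07). Rassf2, Fjx1 and Rassf5 fell with log2 changes of -1.21, -1.04 and -0.97. Rassf2 averaged 1.18 RPKM in the controls and 0.224 RPKM after Hnrnpk siRNA, so it reached the filter only through the controls. Fjx1 is the mouse counterpart of four-jointed, a fly Golgi kinase that acts on atypical cadherins, and the RASSF genes encode partners of the MST kinases. Rising genes included Amotl2 (log2 change 1.14) and Ptpn14 (0.94), which hold YAP in the cytoplasm and are also YAP targets. They included as well the atypical cadherin gene Fat1 (0.81) and Rassf1 (0.95).

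In a list of 12 TEAD partners and cofactors, 10 were tested, 5 rose and none fell (median log2 change 0.26). The list includes the 14-3-3 genes described below. It also includes Tead4, already described above, which is among the 5 that rose. Over all genes tested, 32.2% were called higher and 35.0% lower. At an unadjusted limma p under 0.05 the count of falls was also 0, and the lowest log2 change was -0.12, for Ywhaz. The largest rise was in Vgll3, whose protein competes with YAP for TEAD, from 1.16 and 1.22 RPKM to 7.93 and 7.82 RPKM (log2 change 2.31, limma adjusted p = 6.11e-08). Its estimate lay above that of Ctgf, but the difference between the 2 genes was not tested. Its relative Vgll4, a TEAD co-repressor gene, rose from 1.63 and 1.61 RPKM to 2.27 and 2.36 RPKM. Sfn, one of the 14-3-3 genes whose proteins bind phosphorylated YAP, rose from 37.7 and 40.9 RPKM to 73.1 and 74.3 RPKM (log2 change 0.90). Another 14-3-3 gene, Ywhag, rose by 0.42 on the log2 scale, and the other 5 were not called.

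**Figure D4:**
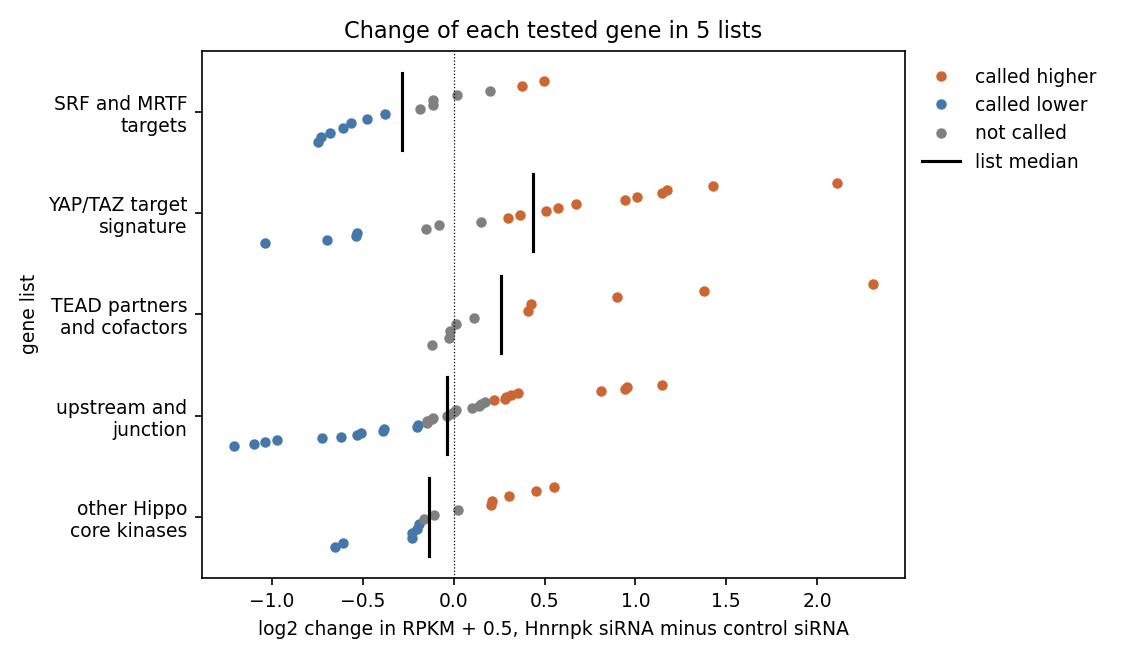
Log2 change of RPKM + 0.5 (Hnrnpk siRNA minus control siRNA) for each tested gene of 5 lists, coloured by its call, with a black line at the list median. Core and upstream genes lie on both sides of 0, with medians of -0.14 and -0.039, while the median of the YAP/TAZ target signature is 0.43 and that of the SRF and MRTF targets -0.28.

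A published signature of 22 YAP and TAZ target genes, drawn from human cancers, was then read in these libraries. All 22 were in the table and 18 were tested. Of these, 11 rose and 4 fell, against 32.2% and 35.0% of all genes tested, and the median log2 change was 0.43. The signature contains Ctgf, Cyr61, Lats2 and Ankrd1. Without them, 15 were tested, 8 rose, 4 fell and the median was 0.30. Myof, a membrane-repair gene, rose from 3.13 and 2.61 RPKM to 7.74 and 6.48 RPKM (log2 change 1.17), and Amotl2 from 10.5 and 12.7 RPKM to 26.9 and 25.3 RPKM (1.14). Igfbp3, Gadd45a, F3, Nt5e and Tgfb2 rose by 1.01, 0.57, 0.51, 0.36 and 0.30 on the log2 scale. Tgfb2 averaged 0.413 RPKM in the controls and 0.621 RPKM after Hnrnpk siRNA. It thus reached the filter of 0.5 RPKM only through the group where it was high. With a filter of 1 RPKM, 9 signature genes were called higher. Igfbp3 and Gadd45a are known p53 targets as well.

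The 4 signature genes that fell were Fjx1 (log2 change -1.04), Nuak2 (-0.70), Dock5 (-0.54) and Axl (-0.53). Nuak2, a kinase gene that in other cells is a YAP target, went from 7.13 and 5.35 RPKM to 3.60 and 3.63 RPKM. Axl, a receptor tyrosine kinase gene, went from 1.98 and 1.65 RPKM to 1.10 and 1.10 RPKM. Foxf2, Ccdc80 and Rbms3 were too low to be tested, like Ankrd1. Of these, Foxf2 went from 0.00852 and 0.00694 RPKM to 0.0708 and 0.122 RPKM. Rbms3 went from 0.00425 and 0.00355 RPKM to 0.00997 and 0.00526 RPKM, and the groups of Ccdc80 overlapped. The signature therefore did not move as a block, and no test of the list as a whole was made.

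**Figure D5:**
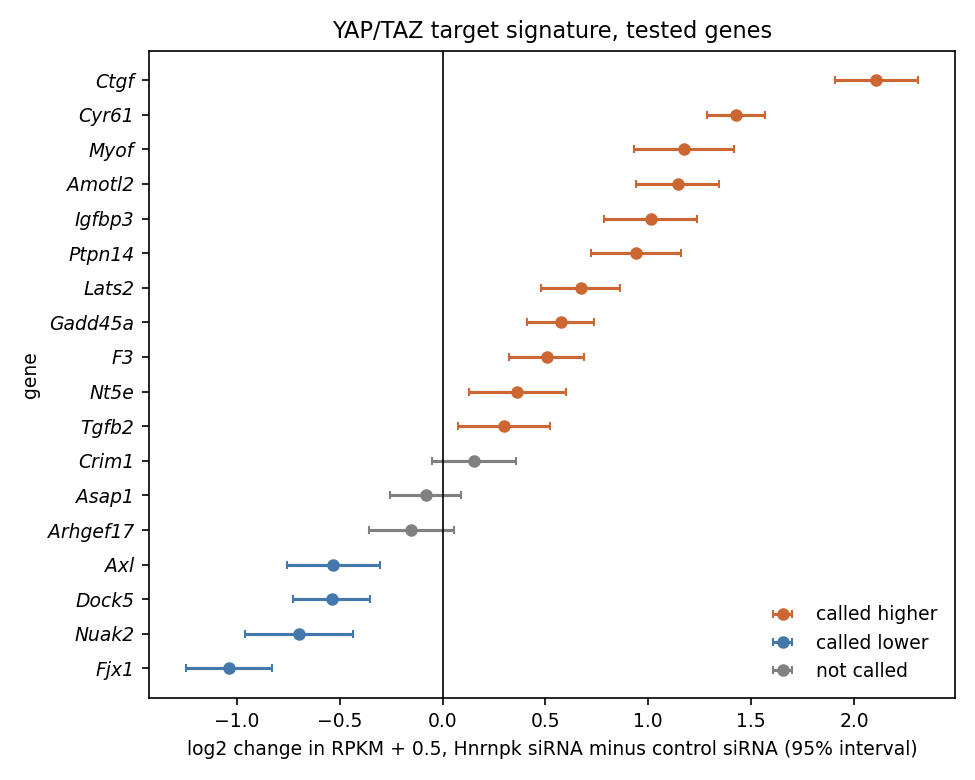
Log2 change of RPKM + 0.5 (Hnrnpk siRNA minus control siRNA) of the 18 tested genes of the YAP/TAZ target signature, with 95% intervals from limma. The 11 genes called higher run from Tgfb2 at 0.30 to Ctgf at 2.11, and the 4 called lower from Axl at -0.53 to Fjx1 at -1.04.

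Ctgf and Cyr61 also respond to serum response factor (SRF) and its actin-sensing co-activators, the MRTF proteins. Of 14 tested SRF and MRTF targets of the cytoskeleton, 2 rose and 7 fell, against 32.2% and 35.0% of all genes tested. The median log2 change was -0.28. Acta2, among those that fell, averaged 0.806 RPKM in the controls and 0.435 RPKM after Hnrnpk siRNA. It reached the filter only through the controls. Srf itself fell from 27.6 and 27.5 RPKM to 15.7 and 16.7 RPKM (log2 change -0.75, limma adjusted p = 8.63e-06). Myl9, Flna and Vcl, genes of the contractile and adhesion apparatus, fell with log2 changes of -0.73, -0.61 and -0.56. Tagln2 and Fhl2 rose, by 0.50 and 0.38.

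Markers of other cell types rose in the same libraries as the target genes. Of 10 tested primitive endoderm markers 8 rose and 1 fell, against 32.2% and 35.0% of all genes tested. Pdgfra, among those that rose, averaged 0.170 RPKM in the controls and reached the filter only through the Hnrnpk siRNA libraries. The summed level of the list was 180 to 182 RPKM in the controls and 315 to 328 RPKM after Hnrnpk siRNA. Sparc alone made up 143 and 146 RPKM in the controls and 235 and 246 RPKM after Hnrnpk siRNA. Of 7 tested trophectoderm markers all 7 rose, where 32.2% of all genes tested were called higher. The summed level of the list was 36.4 to 41.8 RPKM in the controls and 77.9 to 83.0 RPKM after Hnrnpk siRNA. Krt18 made up 15.8 and 18.9 RPKM of it in the controls and 30.9 and 33.2 RPKM after Hnrnpk siRNA. Krt8 made up 10.8 and 13.7 RPKM, then 21.2 and 23.7 RPKM. Of the markers too low to be tested, Cdx2 and Krt7 were higher after Hnrnpk siRNA and Elf5 and Plac1 were lower. Cdx2, a defining trophectoderm factor, reached 0.731 and 0.749 RPKM from 0.166 and 0.303 RPKM. Plac1 went from 0.216 and 0.179 RPKM to 0.0486 and 0.0851 RPKM. Elf5 went from 0.105 and 0.109 RPKM to 0.0608 and 0.0705 RPKM. In bulk RNA a larger share of such cells and more RNA per cell cannot be told apart, and the part of these markers in the changes of Ctgf, Cyr61, Lats2 and Tead4 was not tested. Of 4 tested fibroblast markers 1 rose and 2 fell, and 8 of the 12 in the list, including Col1a2, Col3a1, Postn and Dcn, were under 0.1 RPKM in every library. The summed level of that list was 9.68 to 11.6 RPKM in the controls and 6.96 to 7.04 RPKM after Hnrnpk siRNA. Without Thy1, which fell from 6.90 and 5.196 RPKM to 2.22 and 2.28 RPKM, the sums were 4.68 and 4.48 RPKM in the controls and 4.75 and 4.76 RPKM after Hnrnpk siRNA.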

How the data were processed

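The authors deposited RPKM values per gene in 1 table with a column for each of the 4 libraries, per the file headers. BWA, SAMtools and build mm9 are named in the submitters' processing notes, without versions. How reads were counted, with which annotation, and whether strand was used are not stated in the labels. The labels name both ribosomal RNA depletion and poly(A) selection. Positions, exon overlaps and GC content come from GENCODE M21 (GRCm38), where 92.8% of the identifiers were found; upstream sequences come from RefSeq (GRCm38.p6), which held windows for 8 of the 10 genes. Ctgf and Tead1 had none. Transcripts were compared by BLAST 2.17.0 at 95% identity over at least 100 bases. Of the longest Yap1 transcript, 5.5% was shared with other genes. Of that of Ctgf, 7.9% was shared, only with Gm15270, the gene on the opposite strand at the same locus. Lats2 is described in the text.

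From the RPKM values, log2(RPKM + 0.5) was computed for genes averaging at least 0.5 RPKM over the libraries and compared with limma 3.58.1 in R 4.3.3 (mean-variance trend, two-sided, Benjamini-Hochberg over all 12486 genes tested). RPKM are not counts, so no count model was used. A change on this scale understates that of low genes. On simulated data for 12486 genes, limma called 100% of 200 genes changed by 0.5 or 1, with 8 false calls among 208. The simulated spread depended only on a gene's level, and far fewer genes changed than the 67.2% called here. These rates therefore need not hold for these libraries. Alternatives were another added value, filter or scaling, a replicate block, no trend, GC trends removed, and leaving out each library. All 10 genes are named. In each further pathway or target list the up to 4 called genes of lowest p in each direction are named; cell type marker lists are given by counts and sums. Others, such as Stk3, Vgll4, Nov, the remaining signature genes and single markers, were named after their values were seen. The genes and lists were chosen with earlier results of these data known.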

Additional observations from a re-analysis of the deposited data

How the results depend on the processing

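The calls of Ctgf, Cyr61, Lats2 and Tead2, and the absence of a call for Yap1, held with the same direction under all 13 alternatives. The log2 change of Ctgf lay between 1.98 and 2.24, that of Cyr61 between 1.40 and 1.505, and that of Lats2 between 0.58 and 0.77. The number of the 10 genes called lower was 1 in place of 2 under quantile normalization and with GC trends removed, and 1 to 2 without 1 library at a time, each time through Tead3. In the YAP/TAZ target signature, for which the same alternatives were chosen after seeing the data, 9 to 12 genes were called higher against 11 and 4 to 5 lower against 4. Genes called over the whole table numbered 6792 to 9660 against 8396. Wwtr1 and Lats1, not called, changed sign. Under quantile normalization the log2 change was 0.00078 for Wwtr1 and 0.00036 for Lats1. Without 1 library at a time it ran from -0.16 to 0.088 for Wwtr1 and from -0.15 to 0.013 for Lats1, above 0 without control replicate 1 for both and without Hnrnpk siRNA replicate 2 for Lats1 (0.0033); the cause was not tested. Replicate numbers are shared by the groups, but same-numbered libraries did not deviate together (r = 0.0267 over genes, which are not independent). With the number as a replicate block, 4 of the 10 genes were called higher and 2 lower, as without it. The absolute depth is unknown, so no counting interval can be given, and Ankrd1 was too low to be tested under the filter. With 2 libraries a group, the calls depend on variance pooled across genes.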
